A study of Homo sapiens with 4 samples.

Results

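LGR5, SMOC2, CA2 and VIL1 are 4 genes used as markers of position along the intestinal crypt, and their transcripts were followed in a human colon carcinoma line treated with verticillin A. They were picked from earlier results on these same arrays because they differed between the groups, so the values that chose them are given as a description and carry no test. They are 4 of 14884 genes measured, and each was represented by 1 probe set. The line was LS411N-5FU-R, derived from LS411N colon carcinoma cells and resistant to 5-fluorouracil, a pyrimidine antimetabolite. All arrays came from this line in serum-containing RPMI medium. The control group (0 nM, 2 arrays) received no verticillin A, and whether it received a vehicle is not given in the sources used here. The treated group (2 arrays) was kept with 50 nM verticillin A, a fungal epipolythiodioxopiperazine, for 3 days. Whether the resistant line is a single clone, and whether the arrays of a group came from separate cultures, is likewise not given, so the p-values reflect the spread among these arrays alone, which may be technical.

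Colonic epithelium is renewed from stem cells at the crypt base, which depend on Wnt signals strengthened by R-spondins. LGR5, a receptor for R-spondins, and SMOC2, a secreted calcium-binding matrix protein, are both used as markers of these stem cells. As their daughters move up the crypt they become absorptive or secretory cells. CA2, a cytosolic carbonic anhydrase that interconverts carbon dioxide and bicarbonate, is abundant in absorptive colonocytes, and VIL1 encodes villin, which bundles the actin of brush border microvilli. In colon carcinoma lines such markers are read in cultured tumour cells, without crypt architecture.

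SMOC2 had an entry in the RefSeq promoter table used here, and LGR5, CA2 and VIL1 had none. The SMOC2 stretch is shown because its RNA was lower on both treated arrays. It covers the 250 bases before the annotated gene start on the plus strand of GRCh38.p14, at chr6:168440934-168441183, and the capitals mark GC boxes.
SMOC2: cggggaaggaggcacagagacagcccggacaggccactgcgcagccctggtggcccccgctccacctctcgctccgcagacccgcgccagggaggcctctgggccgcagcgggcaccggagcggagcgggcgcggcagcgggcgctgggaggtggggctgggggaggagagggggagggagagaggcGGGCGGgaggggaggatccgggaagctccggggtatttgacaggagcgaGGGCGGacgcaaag
The stretch is 75.2% G or C and holds 24 CpG dinucleotides, against medians of 58% and 11 over 27303 RefSeq promoters of the same length. GC boxes (GGGCGG, searched on both strands) began 63 and 14 bases before the gene start, and 42.3% of the promoters held at least 1. No match was found on either strand for the TCF/LEF core (CTTTGA or CTTTGT), the CCAAT box (CCAAT) or the TATA box (TATAAA), which 22.9%, 33% and 11.1% of the promoters held. The GC boxes did not overlap another of these motifs.

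The stem cell markers were both lower with verticillin A. LGR5 had log2 expression values of 7.34 and 7.15 on the control arrays and 5.91 and 6.17 on the treated arrays. Both treated values lay below both controls, with a gap of 0.98 between the groups, although this gene had the widest spread among the 4, 0.19 between the control arrays and 0.26 between the treated ones. Its means were 7.25 ± 0.14 and 6.04 ± 0.19 (SD, n = 2 per group), a log2 difference of -1.21 or 2.31-fold. Over the 4 pairings of a treated with a control array the fold ranged from 1.97 to 2.70. Counting LGR5 itself, 26 of the 14884 genes were lower by at least as much.

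SMOC2 had log2 values of 5.77 and 5.85 on the control arrays and 4.90 and 4.94 on the treated arrays. The arrays of a group were close, 0.08 and 0.04 apart, and the groups did not overlap. The means of 5.81 ± 0.06 and 4.92 ± 0.03 (SD, n = 2 per group) differed by -0.89 on the log2 scale, 1.86-fold, with 1.78-fold to 1.93-fold over the array pairs. Including SMOC2, 80 genes were lower by at least as much. SMOC2 was the only one of the 4 whose mean over the arrays lay under the median of all gene means, 5.842. VIL1, with a mean of 5.848 over the arrays, lay barely above it. No detection calls were used, and folds of dim genes may be understated on this scale.

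The differentiation markers went opposite ways. CA2 had log2 values of 8.01 and 8.08 on the control arrays and 8.93 and 9.08 on the treated arrays, so both treated values were higher. Its means of 8.05 ± 0.05 and 9.01 ± 0.11 (SD, n = 2 per group) differed by 0.96, a 1.94-fold higher level with verticillin A, and the array pairs gave 1.80-fold to 2.10-fold. With CA2 included, 27 genes were higher by at least as much.

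VIL1 had log2 values of 6.10 and 6.22 on the control arrays and 5.57 and 5.51 on the treated arrays. It was lower in the treated cells, in the same direction as the stem cell markers. The means were 6.16 ± 0.09 and 5.54 ± 0.04 (SD, n = 2 per group), a log2 difference of -0.62 or 1.54-fold, and 1.44-fold to 1.64-fold over the array pairs. This was the smallest difference of the 4, and 243 genes including VIL1 were lower by at least as much. The groups did not overlap for any of the 4 genes, an arrangement seen in 54.8% of all genes tested (25.7% with the treated arrays higher and 29.1% with them lower), and nothing is read from it here because the genes were chosen on this contrast. In bulk RNA, fewer cells of a type and less RNA per cell cannot be told apart.

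**Figure D1:**
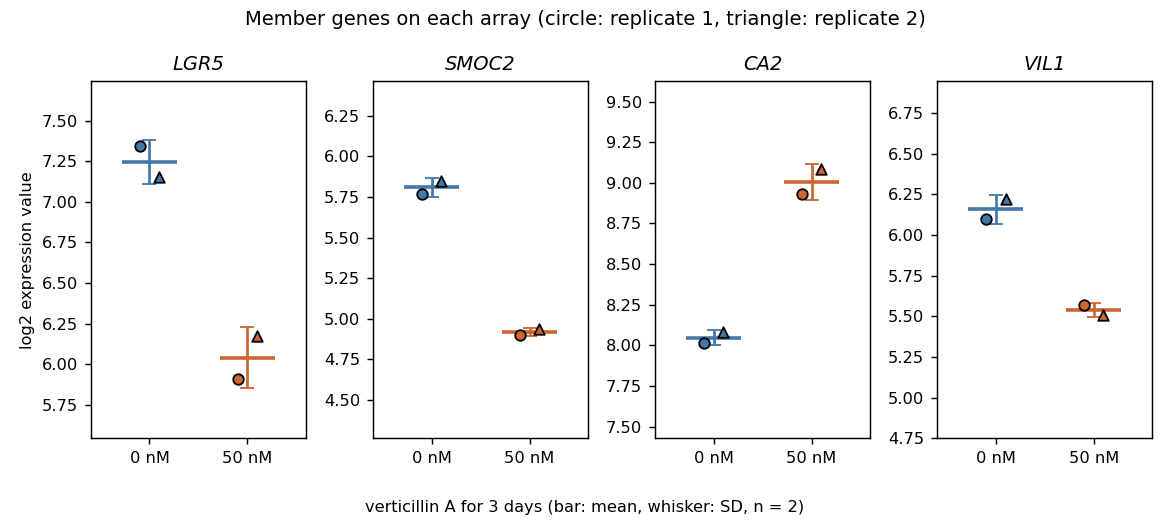
Log2 expression value of LGR5, SMOC2, CA2 and VIL1 on each of the 4 arrays, at 0 nM and 50 nM verticillin A; circles are replicate 1, triangles replicate 2, horizontal bars group means and whiskers SD (n = 2). Each panel has its own range of the same height. LGR5, SMOC2 and VIL1 lie lower and CA2 higher at 50 nM, with no overlap between groups.

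Other genes of these programmes were tested with limma in 1 fit over all genes. They came from lists drawn up with earlier results of these data known. Counts over a list therefore describe it and are no independent support. Over all the lists, 317 genes besides the 4 were listed and 212 measured. The rest had no probe set named for them in the annotation used here. Limma called 528 genes higher (3.55%) and 759 lower (5.10%), 8.65% of the 14884 in all, at a Benjamini-Hochberg adjusted p under 0.05. Lower genes made up 59% of the calls, and 47.1% when each array was centred on its median. Arrays of 1 group correlated at 0.9973 (control) and 0.9978 (treated) over genes and arrays of different groups at 0.9929 to 0.9935, which describes genes and not replicates. The calls below depend on having all 4 arrays: over all genes, 0 passed in limma without control replicate 1, with 3715 at an unadjusted p under 0.05, and 0 without control replicate 2, with 3528. Without verticillin A replicate 1 the calls left among the 212 measured genes of all the lists used here were NKD1 and DCLK1, and without verticillin A replicate 2 they were NKD1, DCLK1 and SCG2. When all 53617 probe sets, named or not, entered the fit and the adjustment, 6 of the 14884 genes were called higher and 12 lower, and 0 of the list genes were among them.

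Colon epithelial identity was first checked on 10 measured markers out of 13 listed. EPCAM, an epithelial adhesion molecule, had log2 values of 11.09 and 11.13 (control) and 10.94 and 10.94 (treated). The claudins CLDN3, CLDN4 and CLDN7 and the keratins KRT8, KRT18 and KRT19 were likewise above the median of gene means on average. KRT20, CDX1 and CDX2 were below it. KRT20 is a keratin of differentiated colonocytes, and CDX1 and CDX2 are intestinal transcription factors. CDX2 had values of 5.19 and 5.19 (control) and 5.53 and 5.23 (treated). KRT19 rose by 0.44 ± 0.09 (log2 change ± SE, limma adjusted p = 0.0493), a call lost with the replicate number as a block (limma adjusted p = 0.0794). The other 9 did not pass, with 3 of the 10 at an unadjusted p under 0.05, KRT19 higher and CLDN7 and EPCAM lower. CLDN7 and EPCAM had differences of -0.31 ± 0.07 and -0.18 ± 0.07 (limma adjusted p = 0.053 and 0.167). Both passed as lower with an intensity trend and robust prior (limma adjusted p = 0.00186 and 0.015). CLDN7 also passed with the dimmest 50% of genes left out (limma adjusted p = 0.0134). The 1 call is 10% of these markers, against 3.55% of all genes called higher.

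Of 25 measured stem cell and Wnt target genes besides LGR5 and SMOC2, 9 fell and 0 rose in limma, with 13 at an unadjusted p under 0.05 that were lower and 2 that were higher. The share that fell was 36%, against the 5.10% of all genes. Of the 25 genes, 18 lay above the median of gene means. With the dimmest 50% of genes left out of the fit, 1329 of 7442 genes were lower. The 5.10% is therefore not a background matched for brightness. In that fit the 9 that fell passed as lower again, with FSTL1 and PTK7 besides them, and MSI1 passed as higher. That fit has its own prior and a smaller set of genes in the adjustment, so its shares are not set against the 36%. The median log2 change of the 25 was -0.26, against -0.0058 over all genes. Groups did not overlap for 23 of the 25 (92%), against 54.8% of all genes. NKD1, a Dishevelled-binding inhibitor of Wnt signalling, had log2 values of 8.93 and 9.11 in control and 7.75 and 7.88 in treated cells. Its fall of 1.21 ± 0.09 on the log2 scale (limma adjusted p = 0.00797) was the furthest of the list. NOTUM, an extracellular enzyme that inactivates Wnt ligands, fell by 0.90 ± 0.14 and the transcription factor gene ETS2 by 0.74 ± 0.07. ETS2 had values of 9.89 and 9.99 in control and 9.19 and 9.22 in treated cells.

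MEX3A, an RNA-binding protein found in a slowly dividing subset of LGR5-positive crypt cells, fell by 0.51 ± 0.07, a call that the mean of its 2 probe sets did not give (-0.23, limma adjusted p = 0.157). ALCAM, a cell adhesion molecule, fell by 0.47 ± 0.07 and RNF43, a ubiquitin ligase that removes Frizzled receptors from the membrane, by 0.44 ± 0.08. The remaining calls were LRIG1, a restrainer of ERBB receptors (-0.44 ± 0.07), CD44, a hyaluronan receptor (-0.41 ± 0.07), and SOX9. LRIG1 and CD44 are named beyond the naming rule, after their values were seen. The furthest of the genes that did not pass were PTK7, a Wnt co-receptor (-0.40 ± 0.10, limma adjusted p = 0.066), and MSI1, an RNA-binding protein of stem and progenitor cells (0.37 ± 0.10, limma adjusted p = 0.0882). With the dimmest 50% of genes left out, PTK7 passed as lower and MSI1 as higher (limma adjusted p = 0.0207 and 0.0313). Both also passed with an intensity trend and robust prior (limma adjusted p = 0.0232 and 0.0368). The list was therefore not uniform, with 17 negative and 8 positive differences. ASCL2, a transcription factor gene of LGR5-positive stem cells named after its values were seen, had log2 means of 4.05 in control and 3.88 in treated cells and did not pass (limma adjusted p = 0.217). AXIN2, EPHB3 and OLFM4 of the same list, also named after their values were seen, had differences the other way. These were 0.11 ± 0.07, 0.19 ± 0.08 and 0.05 ± 0.08, and none passed (limma adjusted p = 0.388, 0.219 and 0.784).

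Of 49 listed absorptive colonocyte genes other than CA2, 27 were measured, and SLC26A3, FABP1, CDH17 and LGALS4 were among those that were not. Of the 27, 0 passed in limma in either direction, against 8.65% of all genes. There were 5 at an unadjusted p under 0.05, and the median log2 change was 0.0062. The differences ran from -0.23 to 0.34, all smaller than the 0.96 of CA2. MGAM, a brush border enzyme that digests starch products, had the furthest difference, with log2 values of 4.14 and 4.30 in control and 4.61 and 4.51 in treated cells (0.34 ± 0.09, limma adjusted p = 0.0732, and 0.0454 after median centring). BEST4, a channel gene of a colonocyte subset, had means of 3.93 in control and 4.24 in treated cells (0.31 ± 0.11, limma adjusted p = 0.149). Only 1 of the 27, the peptidase gene DPP4, was above the median of gene means, and the other 26 were below it.

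Of 27 measured brush border genes besides VIL1, 2 fell (7.41%, against 5.10% of all genes) and 0 rose, with 6 at an unadjusted p under 0.05 and a median log2 change of 0.029. MYO1D, a membrane-bound myosin, had log2 values of 9.62 and 9.80 in control and 9.11 and 9.05 in treated cells, a fall of 0.63 ± 0.09 (limma adjusted p = 0.0205). TNIK, a kinase that also acts with TCF and beta-catenin in Wnt target transcription, fell by 0.51 ± 0.07 (limma adjusted p = 0.0198). ANKS4B, a scaffold of the links between microvilli, had 4.80 and 4.93 in control and 4.58 and 4.09 in treated cells and did not pass (limma adjusted p = 0.118). EZR encodes ezrin, which ties the microvillus membrane to actin. It had 12.35 and 12.48 in control and 12.69 and 12.66 in treated cells, a difference of 0.25 ± 0.08 opposite in sign to that of VIL1 (limma adjusted p = 0.106).

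Of 70 listed genes of goblet, Paneth, enteroendocrine and tuft cells, 47 were measured. MUC2 and the other listed mucin genes were not among them. In limma 1 of the 47 rose and 1 fell, with 9 at an unadjusted p under 0.05, and the median log2 change was 0.026. The calls amount to 2.13% in each direction, against 3.55% and 5.10% of all genes. DCLK1, a microtubule-associated kinase used as a marker of tuft cells, had log2 values of 4.09 and 3.97 in control and 5.12 and 5.00 in treated cells. Its rise of 1.02 ± 0.08, or 2.03-fold (limma adjusted p = 0.00855), was of the size seen for CA2. POU2F3, the tuft cell transcription factor gene, had 4.30 and 4.11 in control and 4.29 and 4.17 in treated cells (limma adjusted p = 0.887). POU2F3 is named after its values were seen. SCG2, a granin of enteroendocrine secretory granules, fell by 0.79 ± 0.09 (limma adjusted p = 0.0139). The furthest that did not pass were VGF, a neuroendocrine peptide precursor (-0.36 ± 0.18), and PTGS1, a cyclooxygenase also found in tuft cells (-0.34 ± 0.10). As 41 of the 47 lay below the median of gene means, most of this list was dim.

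Of 36 measured transcription factor and signalling genes of crypt and colonocyte fate, 4 fell (11.1%, against 5.10% of all genes) and 0 rose, with 12 at an unadjusted p under 0.05 and a median log2 change of -0.08. JAG1, a Notch ligand, had log2 values of 10.48 and 10.70 in control and 9.76 and 9.89 in treated cells, a fall of 0.77 ± 0.10 (limma adjusted p = 0.0185). SMAD4, the shared mediator of BMP and TGF-beta signals, fell by 0.36 ± 0.07, and KLF4, a transcription factor of differentiating cells of the upper crypt, by 0.34 ± 0.07. The fall of KLF4 was lost with an intensity trend and robust prior (log2 change -0.34, limma adjusted p = 0.0691). With the replicate number as a block, SMAD4 and KLF4 did not pass (limma adjusted p = 0.0765 and 0.0768). SOX9, a transcription factor of the crypt base, fell by 0.34 ± 0.07 (limma adjusted p = 0.0491, 0.0516 after median centring and 0.0892 with that block). FOXA2 (-0.37 ± 0.12) and HOXB13 (0.30 ± 0.11), both developmental transcription factor genes of endoderm or hindgut, had the furthest differences that did not pass. Factors of the crypt base and of the upper crypt were both among those that fell. SOX9 and ASCL2 belong to the stem cell list as well.

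**Figure D2:**
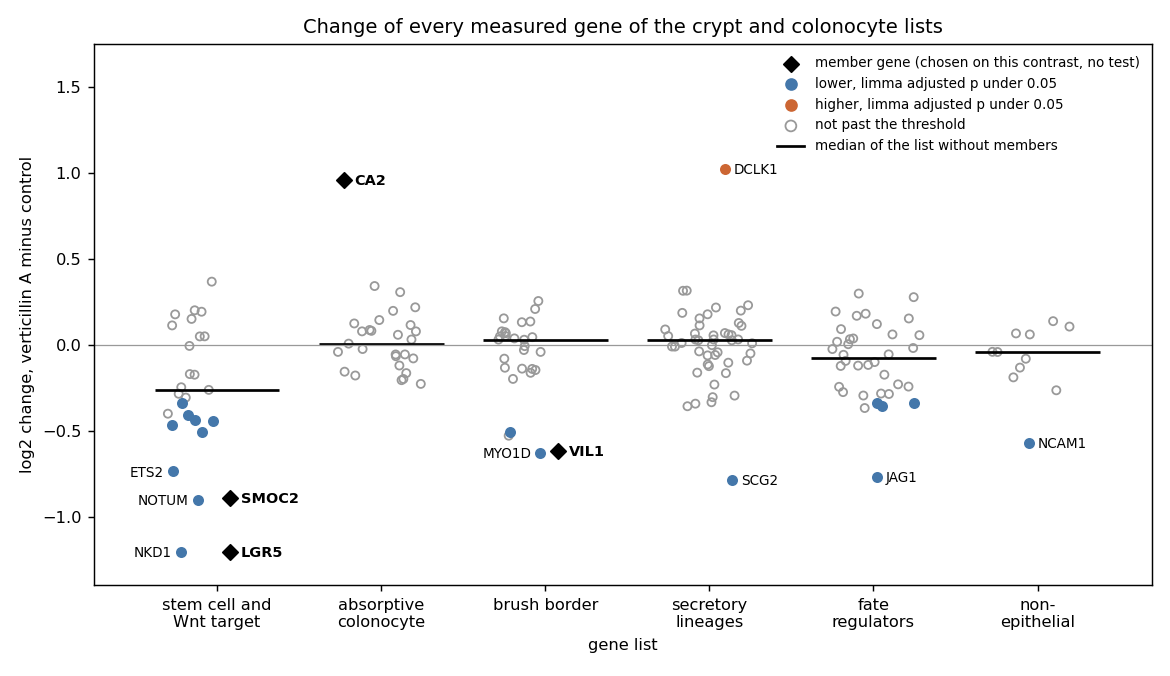
Log2 change (verticillin A minus control, vertical axis) of every measured gene in 6 gene lists; filled circles passed limma's adjusted p of 0.05, open circles did not, black diamonds are the 4 genes chosen on this contrast, and horizontal bars are medians without those 4. In the stem cell and Wnt target list 9 of 25 genes fell with a median of -0.26, and the absorptive list around CA2 has no call and a median of 0.0062.

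The relatives of each gene were then set beside it. LGR5 has the paralogs LGR4 and LGR6, which also bind R-spondins. LGR4 had log2 values of 6.62 and 6.93 in control and 6.68 and 6.95 in treated cells, an overlap of the groups with a difference of 0.04 ± 0.14 (limma adjusted p = 0.902). LGR6 had 4.36 and 4.63 in control and 4.14 and 4.01 in treated cells, a difference of -0.42 ± 0.11 that did not pass (limma adjusted p = 0.0802). Of 20 measured LGR relatives, R-spondins and Wnt receptors, 12 lay above the median of gene means. In this list 5 fell (25%, against 5.10% of all genes) and 0 rose, with 8 at an unadjusted p under 0.05 and a median of -0.12. Besides RNF43 these were the Wnt receptor genes FZD2 (-0.52 ± 0.08), FZD3 (-0.50 ± 0.08) and FZD6 (-0.46 ± 0.07) and the co-receptor gene LRP5 (-0.38 ± 0.08). FZD8, another Wnt receptor gene, had a difference of 0.25 ± 0.10 the other way and did not pass (limma adjusted p = 0.191). ZNRF3, the partner ubiquitin ligase of RNF43, had a difference of -0.01 ± 0.08 (limma adjusted p = 0.971) and is named after its values were seen.

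Of the relatives of SMOC2, 3 were measured and 0 passed in limma, against 8.65% of all genes, with 1 at an unadjusted p under 0.05. SMOC1, its closest paralog, had log2 values of 3.99 and 4.16 in control and 4.19 and 4.10 in treated cells (limma adjusted p = 0.666). SPARCL1, an extracellular matrix protein with a related calcium-binding domain, had a difference of -0.26 ± 0.08 (limma adjusted p = 0.102). All 3 were below the median of gene means.

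Of the 10 other carbonic anhydrases measured, 1 fell (10%, against 5.10% of all genes) and 0 rose, with 1 at an unadjusted p under 0.05 and a median of -0.03. CA11, a family member without enzyme activity, had log2 values of 8.08 and 8.27 in control and 7.67 and 7.48 in treated cells, a fall of 0.60 ± 0.10 (limma adjusted p = 0.0319). The cytosolic enzyme CA13 had 7.98 and 7.68 in control and 7.86 and 7.81 in treated cells (0.003 ± 0.112, limma adjusted p = 0.994). CA1, a cytosolic enzyme of colonocytes, was dim, at 3.60 and 3.60 in control and 3.76 and 3.61 in treated cells (limma adjusted p = 0.57). The membrane-bound enzymes CA4, CA12 and CA14 had differences of -0.07, -0.05 and -0.07. CA6, CA7, CA8 and CA10 lay between -0.18 and 0.17. None of these 10 passed in the direction of CA2.

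Of 6 measured relatives of VIL1, 1 fell (16.7%, against 5.10% of all genes) and 0 rose, with 3 at an unadjusted p under 0.05. GSN, which encodes the actin-severing protein gelsolin, had log2 values of 7.16 and 7.31 in control and 6.72 and 6.80 in treated cells, a fall of 0.47 ± 0.08 (limma adjusted p = 0.0343). The closest relatives of villin, AVIL and VILL, had differences of 0.01 ± 0.09 and 0.22 ± 0.10 (limma adjusted p = 0.96 and 0.235). SVIL and FLII, which share gelsolin-like repeats, were opposite in sign to VIL1 at 0.30 ± 0.09 and 0.29 ± 0.07 (limma adjusted p = 0.106 and 0.0577). FLII passed after median centring and after quantile normalization (log2 changes 0.33 and 0.32, limma adjusted p = 0.0418 and 0.0421).

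**Figure D3:**
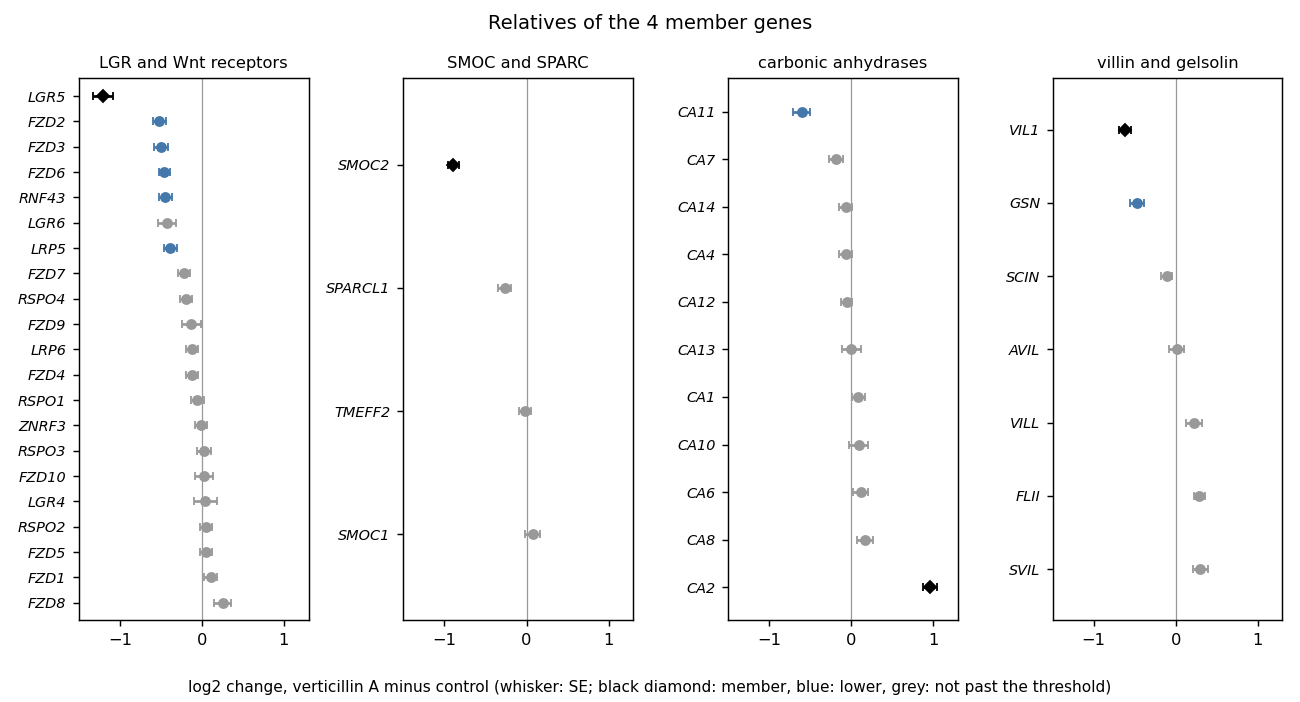
Log2 change with its SE (verticillin A minus control, horizontal axis) of the measured relatives of LGR5, SMOC2, CA2 and VIL1, 1 panel per gene. The LGR5 panel also holds R-spondins, Wnt receptors and the ubiquitin ligase genes RNF43 and ZNRF3. Genes are ordered by change. Black diamonds are the 4 chosen genes, blue passed limma's adjusted p of 0.05 as lower and grey did not pass. LGR5, SMOC2, CA2 and VIL1 each sit at one end of their panel, which is no test since they were chosen on this contrast.

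Position on the chromosome was read from RefSeq gene order, a comparison added after the data were seen. The 3 nearest measured genes on each side of each gene gave 24 neighbours, of which 1 fell and 0 rose in limma, with 4 at an unadjusted p under 0.05, against calls in 8.65% of all genes. The call was RAB3IP, a regulator of RAB8 in membrane traffic, near LGR5. It had log2 values of 5.61 and 5.58 in control and 5.13 and 5.12 in treated cells (-0.47 ± 0.07, limma adjusted p = 0.0208). TSPAN8 and TMEM19, the measured genes next to LGR5, had differences of 0.09 ± 0.07 and -0.02 ± 0.10. FRMD1 and THBS2, next to SMOC2, had 0.10 ± 0.11 and 0.001 ± 0.080. CA1 and PSKH2, next to CA2, had 0.09 ± 0.08 and -0.13 ± 0.08, and MIR26B and USP37, next to VIL1, had -0.16 ± 0.08 and 0.18 ± 0.07. Several neighbours were dim, and genes between them that the annotation used here does not name were not analysed here.

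**Figure D4:**
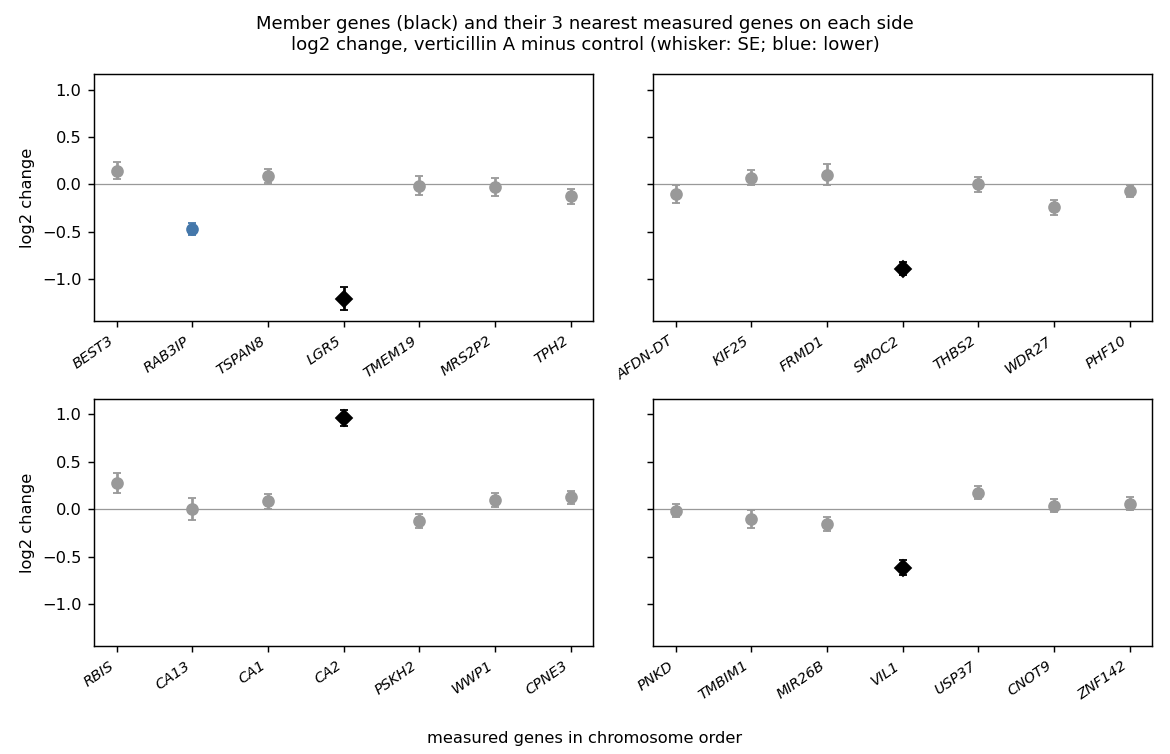
Log2 change with its SE (verticillin A minus control, vertical axis) of LGR5, SMOC2, CA2 and VIL1 (black diamonds) and of the 3 nearest measured genes on each side in chromosome order (circles; blue passed limma's adjusted p of 0.05 as lower, grey did not). RAB3IP at -0.47 is the only call among the 24 neighbours.

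The genes with profiles most like each of the 4 were found by Euclidean distance over the 4 arrays, after each gene was centred on its own mean. With 4 arrays and 14884 genes close profiles are easily found, so they are given as a description. The closest to LGR5 was TOX3, an HMG-box transcription factor gene, at a distance of 0.05, with log2 values of 6.62 and 6.50 in control and 5.24 and 5.48 in treated cells. It shared the higher value on control replicate 1 and the lower one on verticillin A replicate 1. TMEM47 (0.16) and RGS6 (0.20), genes for a membrane protein and a regulator of G protein signalling, followed. The closest to SMOC2 were CNTNAP3 (0.03), which has a near-identical gene copy whose RNA its probes may share, the adhesion G protein-coupled receptor gene ADGRG1 (0.05) and the secreted glycoprotein gene STC2 (0.07).

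CA2 was closest to INSIG1, a sterol-regulated membrane protein gene (0.10), which had log2 values of 8.61 and 8.78 in control and 9.67 and 9.73 in treated cells. ANGPTL4, an inhibitor of lipoprotein lipase (0.11), and SNAR-B1, a small RNA gene of a family of near-identical copies (0.11), were next. VIL1 had the closest profiles of the 4, those of RNF187 (0.02), L3MBTL3 (0.02) and ZC3H8 (0.04). RNF187 encodes a ubiquitin ligase, L3MBTL3 a reader of histone methylation and ZC3H8 a zinc finger protein. None of these 12 genes belongs to the lists above.

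Markers of other cell types were read because SMOC2 and LGR5 can also be expressed outside epithelium. Of 25 stromal, endothelial, blood and glial markers, 11 were measured and all 11 were below the median of gene means. Their summed linear level was 190 and 189 on the control arrays and 175 and 180 on the treated arrays, and the highest single log2 value on any array was 4.86. In limma 1 fell (9.09%, against 5.10% of all genes) and 0 rose, with 1 at an unadjusted p under 0.05. NCAM1, a neural adhesion molecule, had log2 values of 4.69 and 4.76 in control and 4.09 and 4.23 in treated cells (-0.57 ± 0.08, limma adjusted p = 0.0215). S100B, a glial calcium-binding protein gene, and KDR, an endothelial receptor gene, had the furthest differences that did not pass, at -0.27 ± 0.13 and -0.19 ± 0.11. The part of these low levels in the values of SMOC2 and LGR5 was not tested.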

How the data were processed

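The deposited values are the authors' log2 expression values, 1 for each probe set on an array, made with GCRMA per the submitters' processing notes. The sources used here give neither its version nor the annotation or filters. Per the labels' protocols, total RNA was labelled as biotinylated cDNA for an Affymetrix whole-transcript array. The log2 scale was read from the values. Of 53617 probe sets, 16098 carry 1 gene symbol, 0 several and 37519 none; all 16098 matched RefSeq (GRCh38.p14) by gene identifier. The probe set with the highest mean represented each of 14884 genes.

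Differences were fitted with limma 3.58.1 in R 4.3.3 (lmFit, eBayes, treatment as the factor, all 4 arrays, no filter), on 2 residual and 3.43 prior degrees of freedom, with Benjamini-Hochberg adjustment over 14884 genes and a threshold of 0.05. A log2 change is verticillin A minus control, and its SE is limma's moderated one. LGR5, SMOC2, CA2, VIL1 and the gene lists were chosen with earlier results of these data known, so counts over a list describe it and are no independent support. Named genes were, per list, up to 6 called genes with the furthest changes and up to 2 others, the listed paralogs, the epithelial markers and the 3 closest profiles. In 20 simulated data sets for this comparison over 14884 genes with 200 changed, limma recovered 21.8%, 89.8% and 99.3% of log2 changes of 0.5, 1 and 2, and 4.64% of calls were false. The simulated noise was normal, independent between genes and drawn from limma's own fitted prior. These shares check the procedure and need not hold on these arrays. Alternatives were each array left out, the replicate number as a block, 2 other scalings, a filter on dim genes, averaged probe sets, another prior and a test of all probe sets. The number of arrays limits the precision, and no detection calls were used.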

Additional observations from a re-analysis of the deposited data

How the results depend on the processing

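The log2 differences of LGR5, SMOC2, CA2 and VIL1 kept their sign under every alternative that gave a value. Leaving out 1 array gave -1.34 to -1.07 for LGR5, -0.93 to -0.85 for SMOC2, 0.88 to 1.04 for CA2 and -0.68 to -0.56 for VIL1. SMOC2, DCLK1, KLF4 and the chromosomal neighbour RAB3IP have no value with the dimmest 50% of genes left out, nor have the non-epithelial markers, NCAM1 included. Counts of calls in limma were less stable. Leaving out 1 array left 0 to 52 genes higher and 0 to 105 lower in the whole table, 0 to 1 lower stem cell and Wnt target genes, 0 lower brush border genes, 0 to 1 higher and 0 to 1 lower secretory genes, 0 lower fate regulators, 0 lower relatives of the 4 genes (7 with all arrays over the 4 families together) and 0 lower non-epithelial markers. Such a fit has 1 residual degree of freedom, against 2 with all arrays. Relatives here include the R-spondins, Wnt receptors and ubiquitin ligases listed with LGR5. That list gave 5 of the 7 calls with all arrays, none of them an LGR gene, and RNF43 is counted among the stem cell genes as well. The replicate number as a block gave 228 higher and 364 lower genes, with 4 stem cell genes, 1 fate regulator and 2 relatives lower. The 12 list calls lost with this block were CD44, SOX9, LRIG1, RNF43, ALCAM, KLF4, SMAD4, LRP5, FZD6, CA11, GSN and KRT19. The labels do not say that a number marks a shared culture, and deviations of same-numbered arrays correlated at 0.0124 over genes, so the arrays were not treated as pairs. Quantile normalization put 1 relative higher; median centring put 1 relative and 1 absorptive gene higher. With the dimmest 50% left out there were 1070 higher and 1329 lower genes, 1 stem cell gene, 2 brush border genes and 2 relatives higher and 8 fate regulators lower. Newly lower in that fit, beyond the fate regulators, were FSTL1, PTK7, FZD7 and CLDN7. Of the 47 secretory genes 6 were still tested, without DCLK1, and 0 were higher. An intensity trend with a robust prior gave 1054 higher and 1360 lower genes, 1 stem cell gene, 2 brush border genes, 2 secretory genes and 1 relative higher. Newly lower with that prior were PTK7, EPS8, EHF, KLF5, MYC, CLDN7 and EPCAM. With all probe sets tested 6 genes were higher and 12 lower, and 0 genes of these lists passed, including 0 of the lower stem cell, brush border, secretory, fate regulator, relative and non-epithelial genes and 0 higher secretory genes. The cause was not tested. The single call among the chromosomal neighbours was lost whichever array was left out and with all probe sets tested.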
